A study of Homo sapiens with 12 samples.

Results

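The genes described here are 10 genes of the NF-kappaB pathway, taken by symbol from a table of 58676 genes. They are the 5 subunits of the transcription factor (NFKB1, NFKB2, REL, RELA and RELB), 3 inhibitors of the IkappaB family (NFKBIA, NFKBIB and NFKBIE), and TNFAIP3 and BIRC3. The products of TNFAIP3 and BIRC3 are ubiquitin enzymes that regulate the receptor complexes that switch the pathway on. RNA-seq covered 12 libraries of A549 cells, a long-established cell line from a human lung carcinoma. A control line (Control1 in the labels) and a pair of lines with a knockout of NFE2L1 (KO1 and KO2) each received DMSO vehicle or 200 nM bortezomib for 4 h. This makes 6 groups of 2 libraries. NFE2L1 encodes a transcription factor that raises proteasome genes when the proteasome is inhibited, and bortezomib is a proteasome inhibitor. The labels do not say whether each knockout line is a single clone, how the control line was made, or whether the 2 libraries of a group came from separate cultures, so p-values measure only the spread between these libraries, which may be technical. In each KO group the titles mark the libraries R1 and R2. In each control group a library is marked R2 and the other has no number.

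As background, NF-kappaB factors are dimers of proteins that share a Rel homology domain. In resting cells IkappaB proteins hold most dimers in the cytoplasm. In the canonical route, receptor signals activate IKK, the kinase that marks IkappaB-alpha (the product of NFKBIA) for degradation by the proteasome, which frees RELA dimers. In the non-canonical route, the kinase encoded by MAP3K14 leads the proteasome to trim the NFKB2 precursor, which frees dimers with RELB. NFKBIA, NFKBIE, TNFAIP3, BIRC3, NFKB1, NFKB2, REL and RELB are known targets of the factor itself and so form feedback loops, and proteasome inhibition is known to block both the loss of IkappaB and the trimming of the precursor. RNA-seq reads messenger RNA and carries no value for the proteins or where they are in the cell.

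The factor binds kappaB sites in DNA, so promoter sequences of these genes are shown first. RefSeq promoter windows (250 bases before to 50 bases after a transcription start, GRCh38.p14) were available for 8 of the 10 genes, with 13 windows. RELB and NFKBIE were not matched. The kappaB-type motif GGGNNTTTCC was searched on both strands. It was chosen after the promoters had been read. Of all 35116 windows in the table, 671 (1.91%) held a match. By gene symbol, 635 of 27305 (2.33%) had a match in at least 1 window. Of the 8 genes, 7 had at least 1 match, and 8 of their 13 windows held 9 matches in all. The windows of RELA held none, which says only that these letters are not in those windows. The stretches below, 30 bases each and read 5′ to 3′ on the strand of the gene, are shown because they hold these matches. Capitals mark the motif, which reads as its reverse complement where the match is on the other strand.
NFKB1, chr4:102501300-102501329, plus strand: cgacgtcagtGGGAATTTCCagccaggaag
NFKB2, the second start, chr10:102394490-102394519, plus strand: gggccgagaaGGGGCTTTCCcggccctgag
NFKB2, the third start, chr10:102395674-102395703, plus strand: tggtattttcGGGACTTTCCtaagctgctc
REL, chr2:60881518-60881547, plus strand: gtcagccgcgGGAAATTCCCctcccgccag
NFKBIA, chr14:35404811-35404840, minus strand: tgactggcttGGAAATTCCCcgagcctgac
NFKBIB, the second start, chr19:38899931-38899960, plus strand: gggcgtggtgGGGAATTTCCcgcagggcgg
TNFAIP3, with 2 matches, chr6:137867188-137867217, plus strand: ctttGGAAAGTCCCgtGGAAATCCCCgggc
BIRC3, chr11:102317275-102317304, plus strand: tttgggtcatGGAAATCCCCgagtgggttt

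Measured from the RefSeq start, the match began at -49 in NFKB1, at -78 and -21 at the second and the third start of NFKB2, at -46 in REL, at -81 in NFKBIA, at -28 at the second start of NFKBIB, at -67 and -55 in TNFAIP3, and at -199 in BIRC3. The 10 letters on the motif strand were the same, GGGAATTTCC, in NFKB1, REL, NFKBIA and NFKBIB. They were GGGACTTTCC at the third start of NFKB2 and at the first match in TNFAIP3, and GGGGATTTCC at the second match in TNFAIP3 and in BIRC3. The longer upstream stretches of NFKBIA and BIRC3 are shown because both genes carry a single match to this motif and their mean changes with bortezomib had opposite signs, as described below. Other forms of kappaB site were not searched. A match in a sequence is a description and no measurement of binding.
NFKBIA, 250 bases before the start, chr14:35404750-35404999, minus strand: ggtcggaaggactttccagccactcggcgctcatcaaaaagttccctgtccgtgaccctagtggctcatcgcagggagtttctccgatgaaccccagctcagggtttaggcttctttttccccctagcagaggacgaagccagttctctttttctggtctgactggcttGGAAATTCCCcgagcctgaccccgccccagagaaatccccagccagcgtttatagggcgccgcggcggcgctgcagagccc
BIRC3, 216 bases before the start of the annotated gene, chr11:102317234-102317449, plus strand: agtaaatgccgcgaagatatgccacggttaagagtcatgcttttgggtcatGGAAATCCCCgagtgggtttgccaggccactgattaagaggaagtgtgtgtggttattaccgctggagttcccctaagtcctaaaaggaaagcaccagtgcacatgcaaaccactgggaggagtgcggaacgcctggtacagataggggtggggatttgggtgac

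**Figure D1:**
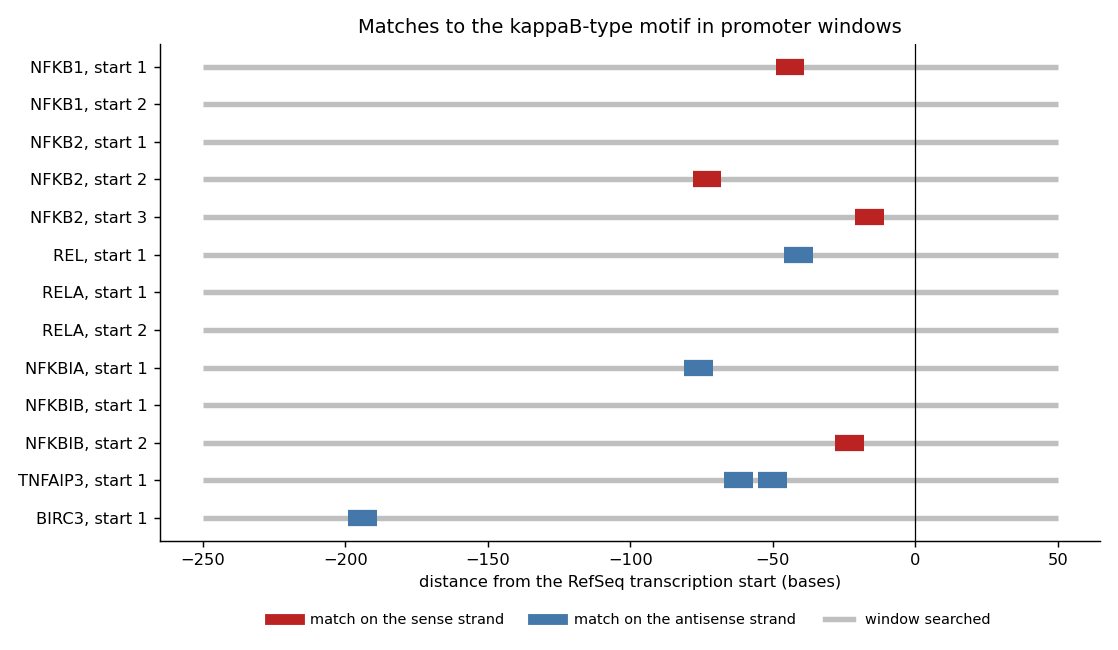
Positions of matches to the kappaB-type motif in the promoter windows of 8 NF-kappaB genes; the horizontal axis is the distance in bases from each RefSeq transcription start, grey lines are the windows searched, red marks matches on the strand of the gene and blue marks on the other strand. The match of BIRC3 lies farthest from its start, at -199, and the RELA windows have no mark.

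Depth, labels and cell type were checked first. Each library held 13211608 to 23819258 reads assigned to genes, and the deposited unit is FPKM (the reads of a gene divided by its length and by all reads assigned to genes, on a fixed scale). NFE2L1 itself was at 72.7 and 151 FPKM in the control vehicle libraries, 8.45 and 14.8 in KO1 and 18.6 and 33.6 in KO2, so the KO libraries were lower than the control libraries in vehicle. All 5 epithelial markers (EPCAM, CDH1, KRT7, KRT8 and KRT18) were present, with summed FPKM of 509 to 1801. None of 5 alveolar type II markers reached a mean of 1 FPKM and SFTPA1 was at 0, so the labelled lung line lacked surfactant transcripts. Among markers of leukocytes, endothelium and fibroblasts, 1 of 6, 0 of 3 and 1 of 4 reached a mean of 1 FPKM. The fibroblast sum (COL1A1 in the main) was 1.59 to 5.62 in vehicle and 6.17 to 23.7 in bortezomib, and the leukocyte sum (CD14) was 0.783 to 3.69 in vehicle and 0 to 0.815 in bortezomib. These sums moved with bortezomib, and their part in the results below was not tested. The R2 libraries had 12.3% to 19.3% of reads on mitochondrial genes, against 5.44% to 6.80% in the others. NFKB1, RELA, RELB, NFKBIB and NFKBIE were lower in R2 than in the other library in all 6 groups. Values are therefore given with and without a replicate block, a term in the model for the suffix in the title.

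All 10 genes had a mean of at least 1 FPKM, the limit for testing that 12194 genes passed. Levels in FPKM are per length and can be compared between genes. By mean level the order was NFKB2, NFKBIB, NFKBIA, RELA, RELB, BIRC3, NFKB1, NFKBIE, TNFAIP3 and REL. NFKB2 averaged 50.7 FPKM, above 94.7% of tested genes, and REL averaged 1.28 FPKM, above 6.08% of them. NFKB2 was above NFKBIB in 12 of 12 libraries, NFKB1 above NFKBIE in 12 and TNFAIP3 above REL in 12. The neighbours NFKBIB, NFKBIA, RELA and RELB were not separated, since each stood above the next in only 7 of 12 libraries. RELB varied most, 6.04-fold between its lowest and highest library, and REL least, 1.53-fold. Each REL value rested on 199 to 329 reads and each NFKB2 value on 2307 to 6071. REL overlaps another gene on its own strand, as given below, so its level may be understated.

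**Figure D2:**
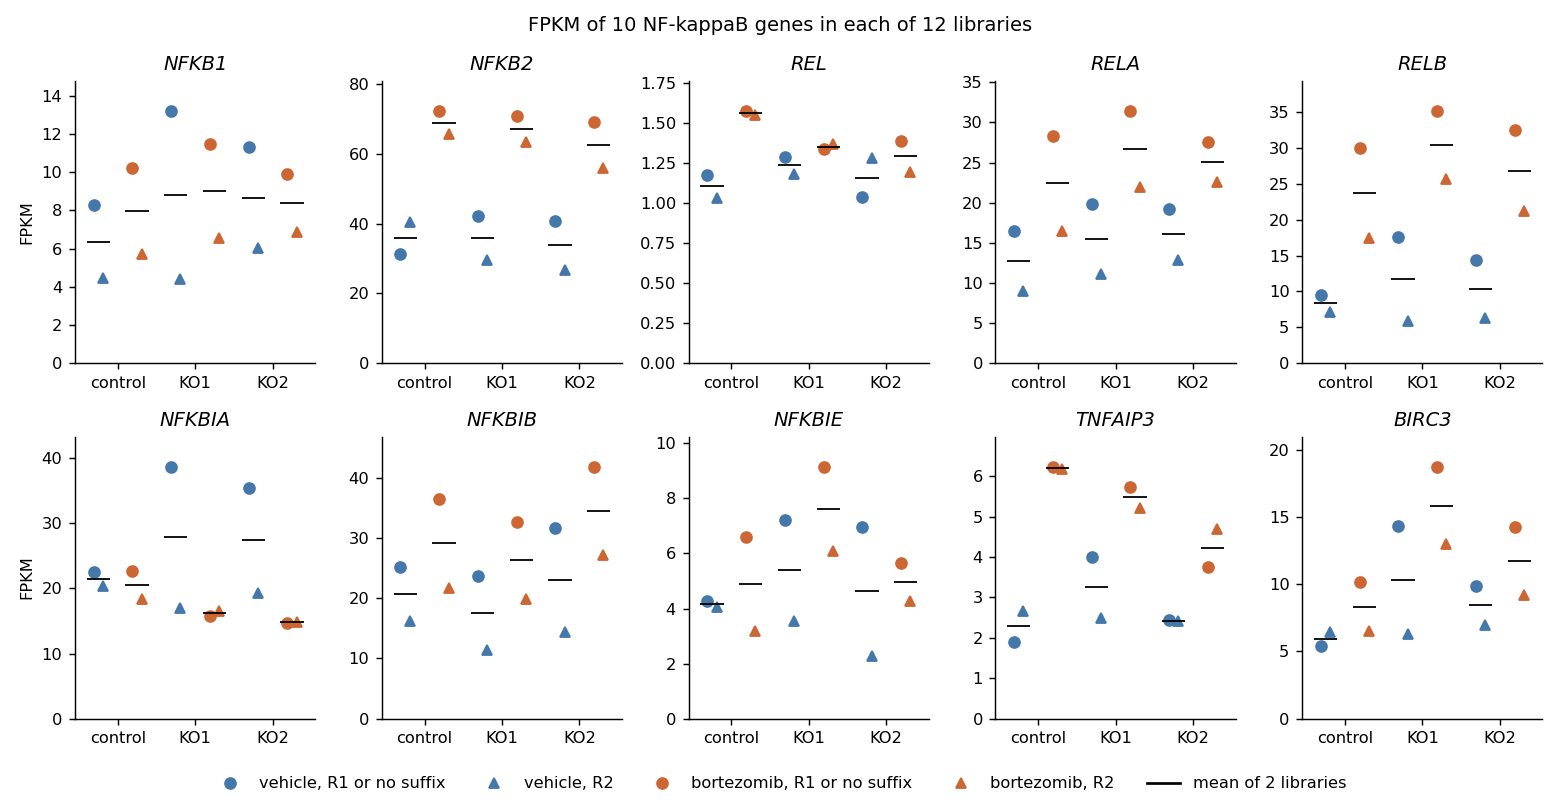
FPKM of the 10 genes in each of the 12 libraries, by line (control, KO1, KO2); each panel has its own linear axis in FPKM starting at 0, blue is vehicle, orange is bortezomib, circles are the R1 or unnumbered library, triangles the R2 library, and black lines the mean of the 2 libraries. In the NFKB2 panel all orange points (56.1 to 72.3) lie above all blue points (26.7 to 42.2), while in the NFKB1 panel the colours overlap and the triangles lie below the circles.

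RNA of the non-canonical subunits RELB and NFKB2 and of the feedback regulator TNFAIP3 rose with bortezomib over the 3 lines. The mean change was 1.40 ± 0.32 (SE) for RELB, 0.91 ± 0.23 for NFKB2 and 0.79 ± 0.15 for TNFAIP3 on the log2(FPKM + 1) scale, which understates changes of low genes. These were 3 of 10 members called higher at a Benjamini-Hochberg adjusted p under 0.05 by limma without the block, where 4.85% of all tested genes were called higher, and no member was among the 6.76% called lower. With the replicate block 6 members were called higher, RELA, NFKBIB and BIRC3 being added, and NFKBIA was called lower, where 27% of tested genes were called higher and 27.9% lower. The median change of the 10 members was 0.53, and that of all tested genes was -0.01. Matched by suffix, the same 6 genes were higher with bortezomib in 6 of 6 pairs of libraries, as were 24.8% of tested genes. NFKB2 was the only member with all 6 bortezomib libraries above all 6 vehicle libraries, as were 4.35% of tested genes. Orders of treatments within a single line, given for several members below, rest on few libraries. The share of tested genes with such an order within a line is not given here, so these orders are descriptions only.

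**Figure D3:**
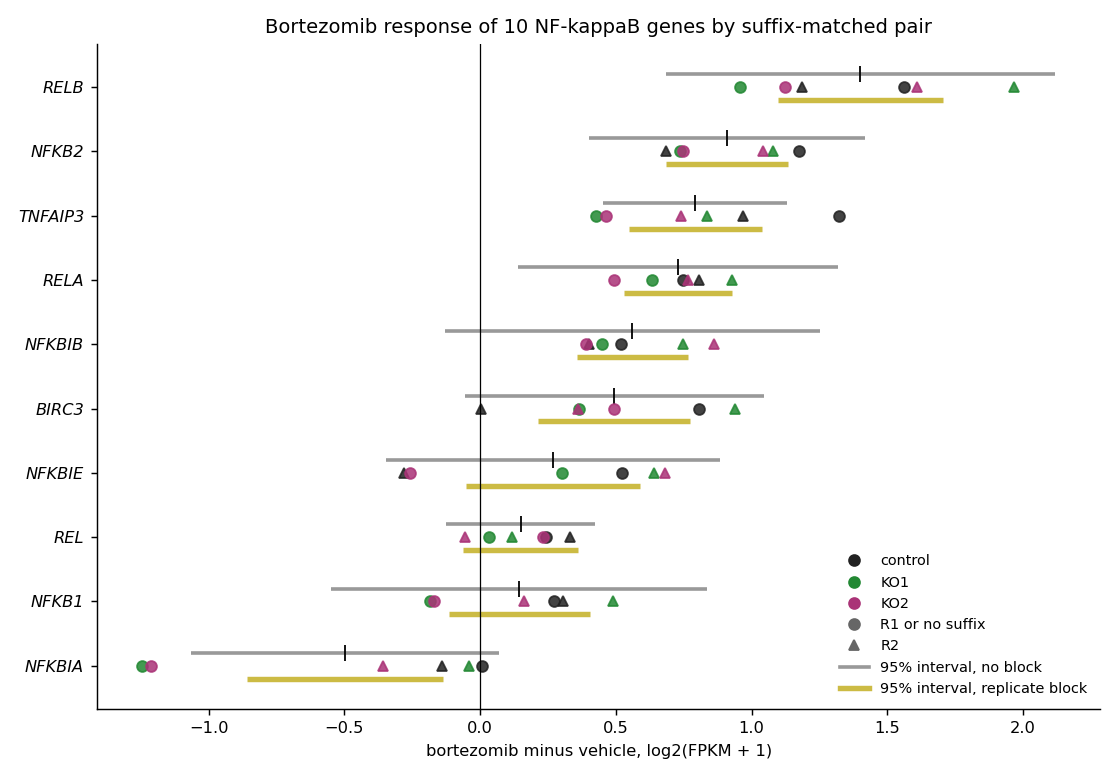
Change of each gene with bortezomib in 6 suffix-matched pairs of libraries, in log2(FPKM + 1); points are single pairs (black control, green KO1, purple KO2, circles R1 or no suffix, triangles R2), ticks are limma means over the 3 lines, grey bars their 95% intervals without and yellow bars with the replicate block. All points of RELB, NFKB2, TNFAIP3, RELA, NFKBIB and BIRC3 lie above 0, while for NFKBIA the 2 KO pairs marked with circles lie near -1.2 and the other 4 between -0.36 and 0.01.

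Positions of genes are those of the deposited table, which match GRCh38. RELB (ENSG00000104856, chr19:45001430-45038198, plus strand), the subunit that partners with NFKB2 products in the non-canonical route, had the largest change. In the control line it was 9.49 and 7.14 FPKM in vehicle (the unnumbered library and R2) and 30.0045 and 17.5 in bortezomib. In KO1 it was 17.6 and 5.82 FPKM in vehicle (R1 and R2) and 35.1 and 25.7 in bortezomib, and in KO2 14.4 and 6.26 in vehicle and 32.5 and 21.2 in bortezomib. Bortezomib libraries were above vehicle libraries within every line, but the R1 vehicle library of KO1 (17.6) was just above the control R2 bortezomib library (17.5). The ratio of FPKM within matched pairs ran from 1.99 to 4.41. The mean change over the 3 lines had an adjusted p of 0.0225 in limma without the block and 4.27e-05 with it. Without the block the call was lost under a common FPKM sum (adjusted p = 0.0549), with no filter on low genes (adjusted p = 0.0559), and when any of 5 libraries was left out, with adjusted p of 0.0616 to 0.0699. These were control bortezomib unnumbered, control vehicle R2, KO1 bortezomib R1, KO2 bortezomib R1 and KO2 vehicle R2.

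NFKB2 (ENSG00000077150, chr10:102394110-102402529, plus strand), which encodes the precursor trimmed to the other non-canonical subunit, was 31.4 and 40.5 FPKM in control vehicle and 72.3 and 65.7 in control bortezomib. In KO1 it went from 42.2 and 29.5 FPKM in vehicle to 70.9 and 63.5 in bortezomib, and in KO2 from 40.8 and 26.7 to 69.1 and 56.1. The lowest bortezomib library (56.1) stood above the highest vehicle library (42.2). The change was 0.93, 0.91 and 0.89 (log2) in control, KO1 and KO2, values closer to each other than the SE of 0.39 of each. Over the 3 lines the adjusted p was 0.0313 in limma without the block and 8.59e-05 with it. Without the block it missed the threshold under a common FPKM sum (adjusted p = 0.0705) and when any library other than control vehicle R2, KO1 vehicle R1 or KO2 vehicle R1 was left out, with adjusted p of 0.0631 to 0.101 over those 9.

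RELA (ENSG00000173039, chr11:65653596-65663094, minus strand), which encodes the main activating subunit of the canonical route, was lower in R2 than in its partner library in every group. Its level was 16.5 and 8.98 FPKM in control vehicle and 28.4 and 16.5 in control bortezomib. In KO1 it was 19.9 and 11.1 FPKM in vehicle and 31.4 and 21.98 in bortezomib, and in KO2 19.3 and 12.8 in vehicle and 27.5 and 22.5 in bortezomib. The groups did not overlap in either KO line and touched in the control line, where the unnumbered vehicle library and the R2 bortezomib library were both at 16.5. The ratio within matched pairs was 1.43 to 1.99. The mean change of 0.73 ± 0.26 (SE) had an adjusted p of 0.108 in limma without the block and 0.000143 with it. Without the block it was called only after quantile normalization (adjusted p = 0.0362). With the block it was called in each line (adjusted p of 0.00521 in control, 0.00605 in KO1 and 0.0164 in KO2).

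NFKB1 (ENSG00000109320, chr4:102501329-102617302, plus strand), the gene of the p50 precursor, did not pass the test with or without the block. It was 8.29 and 4.44 FPKM in control vehicle, 10.2 and 5.73 in control bortezomib, 13.2 and 4.40 in KO1 vehicle, 11.5 and 6.58 in KO1 bortezomib, 11.3 and 6.02 in KO2 vehicle and 9.93 and 6.85 in KO2 bortezomib. The libraries of a group differed by more than the treatments did, and R2 was the lower library in all 6 groups. The mean change was 0.15 with a 95% interval of -0.11 to 0.40 with the block (adjusted p = 0.307, limma). With the KO1 vehicle R1 library left out the block gave a call (0.27, adjusted p = 0.0266), and with KO1 vehicle R2 left out the blocked change was 0.02 (adjusted p = 0.822). REL (ENSG00000162924, chr2:60881521-60931610, plus strand), the gene of the subunit best known from lymphoid cells, was lowest of all. It was 1.17 and 1.03 FPKM in control vehicle, 1.57 and 1.55 in control bortezomib, 1.29 and 1.18 in KO1 vehicle, 1.34 and 1.37 in KO1 bortezomib, 1.04 and 1.28 in KO2 vehicle and 1.39 and 1.19 in KO2 bortezomib. The bortezomib libraries were above the vehicle libraries in control and KO1 and overlapped them in KO2. The mean change of REL was 0.15 with an interval of -0.06 to 0.36 with the block (adjusted p = 0.205, limma). REL overlaps AC010733.2 on the same strand by 5702 bases, and AC010733.2 averaged 0 FPKM. How reads of this overlap were counted is not given in the sources used here, so the level of REL may be understated.

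Among the inhibitors, NFKBIA (ENSG00000100906, chr14:35401511-35404749, minus strand) was the single member with a negative mean change. Its product is the IkappaB-alpha that the proteasome removes in the canonical route. In the control line it was 22.6 and 20.4 FPKM in vehicle and 22.6 and 18.4 in bortezomib, so the groups overlapped. In KO1 it was 38.7 and 17.0 FPKM in vehicle and 15.8 and 16.5 in bortezomib, and in KO2 35.5 and 19.3 in vehicle and 14.7 and 14.8 in bortezomib. Both bortezomib libraries of each KO line lay below both vehicle libraries, with the R1 vehicle libraries far above the rest. The ratio within matched pairs was 0.407 and 0.415 for the R1 pairs of KO1 and KO2, 0.971 and 0.769 for their R2 pairs, and 1.004 and 0.903 for the control pairs. The change over the 3 lines was -0.50 on the log2(FPKM + 1) scale, with an adjusted p of 0.243 in limma without the block and 0.0255 with it. That call was lost when any of 8 libraries was left out (all 4 control libraries and all 4 R1 libraries), with adjusted p of 0.0571 to 0.0898 and changes of -0.52 to -0.35. Leaving out either control library of a suffix gave the same blocked change (-0.52 for unnumbered, -0.47 for R2), so the control libraries are not 4 separate checks. Within single lines it was not called (adjusted p with the block of 0.875 in control, 0.114 in KO1 and 0.0642 in KO2, limma). With voom on reads recovered from the FPKM and the block, it was called lower in KO1 (adjusted p = 0.0335) and KO2 (adjusted p = 0.0096).

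NFKBIB (ENSG00000104825, chr19:38899700-38908893, plus strand), which encodes IkappaB-beta, was 25.2 and 16.2 FPKM in control vehicle and 36.5 and 21.7 in control bortezomib. In KO1 it was 23.6 and 11.4 FPKM in vehicle and 32.6 and 19.9 in bortezomib, and in KO2 31.7 and 14.5 in vehicle and 41.8 and 27.1 in bortezomib. Each bortezomib library was above the vehicle library of the same suffix, by 1.32 to 1.87 times, but the treatments overlapped in every line because R2 was the lower library throughout. The mean change of 0.56 had an adjusted p of 0.286 in limma without the block and 0.000784 with it. NFKBIB overlaps SIRT2 on the opposite strand by 163 bases, and whether the counting used strand is not given in the sources used here, so reads of this overlap may come from either gene. NFKBIE (ENSG00000146232, chr6:44258166-44265788, minus strand), which encodes IkappaB-epsilon, was 4.28 and 4.06 FPKM in control vehicle, 6.58 and 3.17 in control bortezomib, 7.23 and 3.55 in KO1 vehicle, 9.15 and 6.10 in KO1 bortezomib, 6.96 and 2.29 in KO2 vehicle and 5.66 and 4.28 in KO2 bortezomib. Treatments overlapped in every line, and 4 of 6 matched pairs were higher with bortezomib. Its mean change was 0.27, with a 95% interval of -0.05 to 0.59 with the block (adjusted p = 0.136, limma). With the block it was called when control bortezomib R2, control vehicle R2 or KO2 vehicle R1 was left out (0.39 to 0.40, adjusted p of 0.0483 to 0.0496). Leaving out either control R2 library gave the same change (0.40). Without either unnumbered control library the blocked change was 0.13 (adjusted p of 0.467 and 0.468), the lowest of the 12, and without the block the change ran from 0.06 to 0.48 over the libraries left out.

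TNFAIP3 (ENSG00000118503, chr6:137867188-137883312, plus strand), which encodes the ubiquitin-editing enzyme A20, a feedback brake on TNF receptor and Toll-like receptor signalling, had the steadiest call. It was 1.90 and 2.67 FPKM in control vehicle and 6.23 and 6.18 in control bortezomib. In KO1 it was 4.01 and 2.48 FPKM in vehicle and 5.74 and 5.21 in bortezomib, and in KO2 2.44 and 2.41 in vehicle and 3.75 and 4.69 in bortezomib. Bortezomib libraries were above vehicle libraries within every line, and only the KO1 R1 vehicle library (4.01) reached above the lowest bortezomib library (3.75). How many tested genes have this order within every line is not given here. The ratio within matched pairs was 1.43 to 3.29. The mean change had an adjusted p of 0.0109 in limma without the block and 0.000307 with it, and it passed in all 9 other settings and with each of the 12 libraries left out in turn (adjusted p of 0.0122 to 0.0391 over the latter). An antisense gene, AL357060.1, overlaps TNFAIP3 by 1046 bases and averaged 0.0645 FPKM.

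BIRC3 (ENSG00000023445, chr11:102317450-102339403, plus strand), which encodes c-IAP2, a ubiquitin ligase of the TNF receptor complex that also restrains the non-canonical kinase, was 5.39 and 6.48 FPKM in control vehicle and 10.2 and 6.51 in control bortezomib. In KO1 it was 14.4 and 6.28 FPKM in vehicle and 18.8 and 13.0 in bortezomib, and in KO2 9.87 and 6.98 in vehicle and 14.3 and 9.24 in bortezomib. The groups overlapped in both KO lines, and in the control line the R2 libraries were nearly level (a ratio of 1.004). The largest pair ratio was 2.06. The mean change of 0.49 ± 0.25 (SE) had an adjusted p of 0.233 in limma without the block and 0.00807 with it, and with the block it was not called in any single line (adjusted p of 0.176 in control, 0.0502 in KO1 and 0.171 in KO2). With voom and the block it was called in KO1 (adjusted p = 0.0122).

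Within single lines, limma without the block called none of the 10 genes for bortezomib, with 3 members at an unadjusted p under 0.05 in each line. The background was 0.467% of tested genes called in control, 0.238% in KO1 and 0.32% in KO2. At the unadjusted limit it was 1498, 1153 and 1169 of the 12194 tested genes, in the same order. With the replicate block the counts were 4 called higher in control, where 16.1% of tested genes were, 5 in KO1, where 13.9% were, and 5 in KO2, where 12.7% were. NFKB2, RELA, RELB and TNFAIP3 were called in all 3 lines, and NFKBIB in the KO lines (adjusted p of 0.0219 in KO1, 0.0195 in KO2 and 0.0515 in control). The change of TNFAIP3 was 1.15 in control, 0.63 in KO1 and 0.60 in KO2, and the change of RELB was 1.37, 1.46 and 1.37 in the same order. These values moved with single libraries. Over the settings and left-out libraries RELB ran from 1.002 to 1.75 in control, 0.74 to 2.19 in KO1 and 0.83 to 1.91 in KO2, and TNFAIP3 from 0.97 to 1.47, 0.37 to 0.89 and 0.47 to 0.79. The lowest and highest RELB values of the KO lines came without the R2 and without the R1 vehicle library of that line.

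The knockout of NFE2L1 was compared with the control line in each treatment. In vehicle, 0 of 10 members were called between the mean of the KO lines and control by limma, with or without the replicate block. The background was 0.344% of tested genes without and 6.18% with the block. At an unadjusted p under 0.05 the count was 0 without and 1 with the block, against 561 and 2644 of the 12194 tested genes. That 1 was RELA, at 0.43 (95% interval 0.07 to 0.79, adjusted p = 0.161, limma). The KO line was higher in all 4 pairs, R2 against R2 and R1 against the unnumbered control library. KO1 and KO2 share the control libraries in these pairs, and the share of tested genes with this order was not computed. BIRC3 stood out in the R1 libraries, with 14.4 FPKM in KO1 and 9.87 in KO2 against 5.39 in the unnumbered control library, but the R2 libraries were at 6.28, 6.98 and 6.48. Its mean difference was 0.52 without the block (95% interval -0.30 to 1.35) and 0.28 with it (-0.23 to 0.80). NFKBIA, NFKB2, RELB, NFKBIE and TNFAIP3 had both R1 libraries above the unnumbered control library and both R2 libraries below the control R2 library. The share of all tested genes with this order was not computed. Since R1 occurs only in KO groups, the knockout and the R1 libraries cannot be told apart in those pairs.

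**Figure D4:**
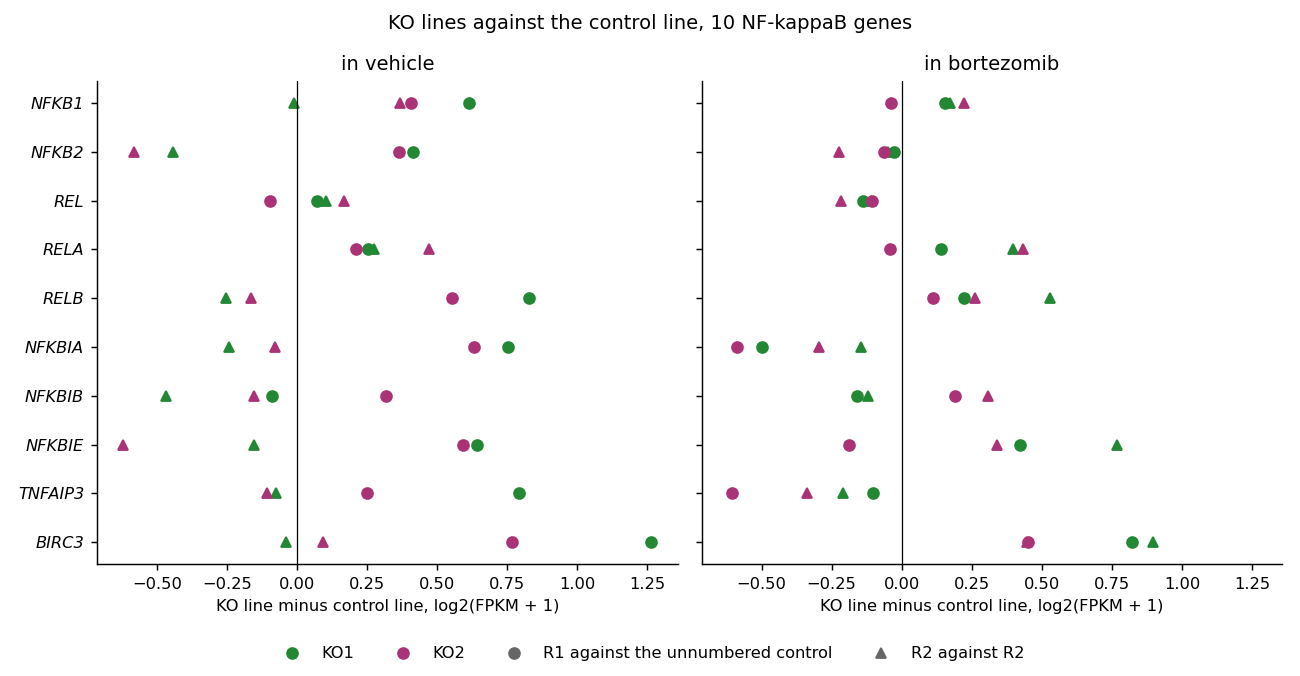
Difference of each KO library from the control library of the same treatment, in log2(FPKM + 1), in vehicle (left) and bortezomib (right); green is KO1, purple KO2, circles R1 against the unnumbered control library and triangles R2 against R2. In vehicle the circles of BIRC3, RELB and NFKBIA lie to the right of their triangles, while in bortezomib all 4 points of NFKBIA, TNFAIP3 and REL lie left of 0 and all 4 points of BIRC3 and RELB right of it.

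In bortezomib, limma again called 0 of 10 members between the KO lines and control, with 0 at an unadjusted p under 0.05 in both fits. The background was 0.164% of tested genes without and 7.66% with the block. At the unadjusted limit it was 697 without and 2879 with the block, of the 12194 tested genes. For 3 members, NFKBIA, TNFAIP3 and REL, all 4 KO libraries lay below both control libraries, as they did for 6.66% of tested genes. NFKBIA was 14.7 to 16.5 FPKM in the KO libraries against 18.4 and 22.6, a difference of -0.51 with the block (95% interval -1.18 to 0.15, adjusted p = 0.33). TNFAIP3 was 3.75 to 5.74 FPKM against 6.18 and 6.23, a difference of -0.45 (-0.90 to 0.01, adjusted p = 0.215). REL was 1.19 to 1.39 FPKM against 1.55 and 1.57, a difference of -0.12 (-0.51 to 0.27, adjusted p = 0.726). BIRC3 was higher in each KO library than in its control library (R2 against R2, R1 against the unnumbered library), by 0.65 on average. With the block the difference was 0.42 (-0.10 to 0.93, adjusted p = 0.308, limma). KO1 and KO2 share the control libraries here, and the share of tested genes higher in each KO library was not computed. For KO1 alone BIRC3 differed from control by 0.86 without the block (adjusted p = 0.984). It was called only where the unnumbered libraries shared the level of R1 (adjusted p = 0.0414), and not in the block by suffix (0.62, adjusted p = 0.174).

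The difference of the bortezomib response between the KO lines and control was called for 0 of 10 members and for 0% of tested genes by limma, with and without the block. Over all tested genes, 115 were at an unadjusted p under 0.05 without and 1305 with the block, and voom (limma) on reads recovered from the FPKM called 0 genes without and 113 (0.927%) with the block, with 0 of the 10 members among them. With the block the largest differences among members were -0.65 for NFKBIA (95% interval -1.41 to 0.12, adjusted p = 0.543) and -0.53 for TNFAIP3 (-1.05 to -0.01, adjusted p = 0.458). TNFAIP3 was the single member with an unadjusted p under 0.05 in that fit. For RELB, NFKB2 and RELA the difference was 0.04 (-0.61 to 0.69), -0.03 (-0.51 to 0.45) and -0.07 (-0.49 to 0.35), so a difference in either direction of the size of these bounds was not excluded for these subunits. KO1 and KO2 were also compared with each other, and limma called 0 members in either treatment, with or without the block. The background was 0.0656% of tested genes without and 3% with the block in vehicle, and 0.041% and 1.82% in bortezomib. At an unadjusted p under 0.05 with the block, NFKBIB was lower in KO1 than in KO2 by -0.36 in vehicle (adjusted p = 0.337) and -0.39 in bortezomib (adjusted p = 0.321), and no other member passed that limit. The share of all tested genes at that limit is not given here.

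The rest of the pathway was read from 2 lists. The first held 45 genes of NF-kappaB signalling from receptors to regulators, 43 of which passed the limit for testing. With bortezomib, over the 3 lines, 5 rose and 3 fell in limma without the block, 17 rose and 8 fell with the replicate block, and the median change was 0.17, against -0.01 for all tested genes. As shares of the 43, 11.6% rose and 6.98% fell without the block, against 4.85% and 6.76% of all tested genes, and 39.5% rose and 18.6% fell with it, against 27% and 27.9%. The share that fell was thus about that of all genes without the block and below it with the block. The receptors TNFRSF1A (TNF receptor) and IL1R1 (interleukin-1 receptor) fell. TNFRSF1A was 124 to 283 FPKM in vehicle (median 190) and 46.3 to 101 in bortezomib (median 66.9), a change of -1.51 ± 0.36 (SE), with an adjusted p of 0.028 in limma without the block. IL1R1 was 5.56 to 13.9 FPKM in vehicle (median 9.03) and 1.90 to 4.58 in bortezomib (median 2.26), a change of -1.39 ± 0.17, with an adjusted p of 0.00184. For both receptors all bortezomib libraries lay below all vehicle libraries, as they did for 5.4% of tested genes. BIRC2, a paralogue of BIRC3 in the same receptor complex, was 9.43 to 14.7 FPKM in vehicle (median 11.9) and 23.8 to 35.1 in bortezomib (median 26.3), a change of 1.17 ± 0.18, with an adjusted p of 0.0045. TRAF3, an adaptor that with BIRC2 and BIRC3 keeps the non-canonical kinase low, was 8.32 to 18.4 FPKM in vehicle (median 10.3) and 20.8 to 30.3 in bortezomib (median 24.2), a change of 1.08 ± 0.24, with an adjusted p of 0.021. The other members of the list that passed without the block were CD40, RBCK1 and TRAF6, which rose, and MAP3K14, the non-canonical kinase, which fell. Without the block, the calls of BIRC2 and IL1R1 held in all other settings and with each library left out, and each of the other 6 was lost in some. For TNFRSF1A the losses came with no filter on low genes and without KO1 bortezomib R1, KO1 vehicle R2, KO2 bortezomib R1, KO2 vehicle R2, control bortezomib unnumbered or control vehicle R2 (adjusted p of 0.0617 to 0.0874). For TRAF3 they came under a common FPKM sum and without either KO1 bortezomib library, KO2 bortezomib R1, KO2 vehicle R2, control bortezomib unnumbered or control vehicle R2 (adjusted p of 0.0518 to 0.0662).

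The second list held 30 NF-kappaB target genes outside the 10, of which 29 were matched to a single row (SOD2 has 2 rows and was left out) and 21 were tested. TNF, IL6, IL1A, IL1B, CXCL10, CCL5, CCL20 and VCAM1 were the 8 below a mean of 1 FPKM. With bortezomib, over the 3 lines, 7 rose and 2 fell in limma without the block and 10 rose and 5 fell with the replicate block, and the median change was 0.21. As shares of the 21, 33.3% rose and 9.52% fell without the block, and 47.6% rose and 23.8% fell with it. The shares of all tested genes were the 4.85% and 6.76%, and the 27% and 27.9%, given above. The share of targets that fell was thus close to that of all genes in both fits, above it without the block and below it with the block. The largest rises were in neutrophil chemokines and in PTGS2, the inducible prostaglandin synthase. CXCL2 was 2.01 to 10.5 FPKM in vehicle (median 4.71) and 11.3 to 192 in bortezomib (median 24.6), a change of 2.82 ± 0.29 (SE), with an adjusted p of 0.000792 in limma without the block. PTGS2 was 1.97 to 13.6 FPKM in vehicle (median 4.49) and 9.81 to 117 in bortezomib (median 44.4), a change of 2.80 ± 0.61, with an adjusted p of 0.0183. CXCL1 was 1.17 to 11.6 FPKM in vehicle (median 5.47) and 4.33 to 291 in bortezomib (median 21.6), a change of 2.53 ± 0.43, with an adjusted p of 0.00632. CXCL8 was 0.425 to 5.89 FPKM in vehicle (median 2.72) and 3.03 to 142 in bortezomib (median 17.9), a change of 2.48 ± 0.47, with an adjusted p of 0.0109. The highest values of CXCL1, CXCL2 and CXCL8 were all in the R2 bortezomib library of KO1. CXCL3, ICAM1 and TRAF1 also rose without the block, and PLAU and TNFAIP2 fell. The call of PTGS2 was lost with no filter on low genes and without KO2 bortezomib R2 or the unnumbered control vehicle library (adjusted p of 0.0504 to 0.0599). The calls of ICAM1, TRAF1 and PLAU were also lost without some libraries, while those of CXCL1, CXCL2, CXCL3, CXCL8 and TNFAIP2 held in all settings and with each library left out.

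**Figure D5:**
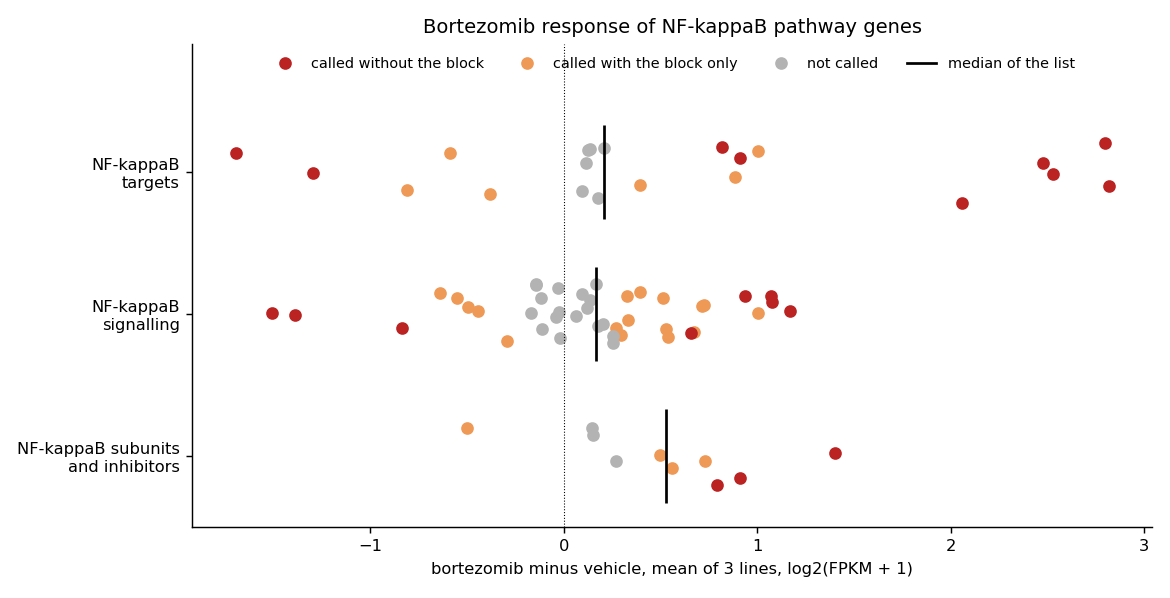
Change with bortezomib over the 3 lines, in log2(FPKM + 1), for the 10 subunits and inhibitors, 43 signalling genes and 21 target genes that were tested; each point is a gene, red if called by limma without the replicate block, orange if called with the block only and grey if not called, and the black line is the median of the list. Medians lie at 0.53, 0.17 and 0.21, and 5 target genes lie above 2 while no subunit or inhibitor lies above 1.40.

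The lists were also compared between KO and control lines. In bortezomib, CXCL3 was 7.94 to 59.8 FPKM in the 4 KO libraries against 2.15 and 4.02 in control, a difference of 2.60 ± 0.35 (SE), with an adjusted p of 0.029 in limma without the block. That call was lost with voom on the recovered reads (adjusted p = 0.0505), a pseudocount of 0.1 (0.0686) and quantile normalization (0.057), and when any bortezomib library or either KO2 vehicle library was left out (0.0532 to 0.431). With the block 5 targets were called higher in the KO lines (CXCL3, CXCL1, CXCL2, PTGS2 and LIF), which is 23.8% of the 21, against 7.66% of all tested genes called in either direction. Of the signalling list, 2 genes were called higher (IRAK4 and NFKBIZ) and 2 lower (MAP3K14 and CD40) with the block and none without it. These 4 are 9.3% of the 43, close to that 7.66%. In vehicle the call with the block was BCL2A1, lower by -1.28, with R1 libraries of KO1 and KO2 at 4.10 and 4.09 FPKM, R2 libraries at 0.445 and 0.429, and control at 4.16 and 3.34. That 1 call of 21 (4.76%) stands beside 6.18% of all tested genes. With unnumbered libraries on the R1 level, BCL2A1 was not called (-0.81). In that fit MMP9 among the targets was called higher (1.33, adjusted p = 0.0436, limma). Of the signalling list, IRAK4 and TBK1 were called higher there and IL1R1 lower (-0.71). That fit called 1001 of 12194 tested genes. With voom and the block BCL2A1 was called lower (adjusted p = 0.0054), and PTGS2, IRAK4, RBCK1 and TRAF5 higher, among 1259 of 12194 tested genes called. No gene of either list was called for the difference of the bortezomib response in limma on log2(FPKM + 1). With voom on the recovered reads and the block, CXCL1, CXCL2 and CXCL3 were called higher (2.24, 1.69 and 2.83). They are named after their values were seen.

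Genes with the profile most like NFKBIA and TNFAIP3 over the 12 libraries were found among the 12193 other tested genes, by the root mean square difference of log2(FPKM + 1) profiles centred on their own means. For NFKBIA they were TTI1 (0.193), CDC25A (0.194) and TRIM47 (0.204), against a standard deviation of 0.419 for NFKBIA itself. For TNFAIP3 they were KSR1 (0.202), RANBP10 (0.204) and ZSWIM4 (0.210), against a standard deviation of 0.456. None of these 6 is on the lists of pathway genes, and R2 libraries share a higher mitochondrial share than the others.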

How the data were processed

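The authors deposited FPKM for 58676 genes in 12 libraries, with gene lengths and positions. The submitters' processing notes name CASAVA, STAR 2.5, HTSeq 0.6.1, DESeq2 and hg19, with no role or order. However, all 58676 gene IDs are in GENCODE release 29 (GRCh38), and 95.2% lie at the position given there, as do all 10 genes described here. FPKM times length gave whole reads for 100% of values in every library (within 0.01 of a read), which gave the depth. Groups were taken from the labels.

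Linear models with a mean for each group were fitted to log2(FPKM + 1) of all 12 libraries, using limma 3.58.1 under R 4.3.3 with the trend option of eBayes. They covered the 12194 genes whose mean reached 1 FPKM, and a gene was called at a Benjamini-Hochberg adjusted p under 0.05. The replicate suffix was then added as a block. Libraries of the same suffix deviated together: over all 15 pairs of groups, the correlation across genes of the difference between the 2 libraries was 0.70 to 0.89 (median 0.81), and 0.80 to 0.89 between KO groups. The suffixes were therefore taken to pair libraries. The unnumbered control libraries had their own level, so KO contrasts in the block compare the lines at the R2 level. The suffix terms are shared over treatments, so a blocked KO difference in 1 treatment is not the difference of its R2 libraries. For NFKBIA in bortezomib the R2 differences were -0.14 in KO1 and -0.30 in KO2, against -0.51 with the block. As a count-based alternative, voom in limma was run on the recovered reads. For bortezomib over the 3 lines it called 1419 genes without and 7078 with the block, against 1415 and 6690 in the fits on FPKM. Other alternatives were a pseudocount of 0.1, no filter, a common FPKM sum, quantile normalization, leaving out mitochondrial genes and leaving out each library. The scripts were tested on simulated data. Tables were handled in Python 3.11.15 with pandas 2.3.3 and numpy 2.4.6.

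Members and lists were chosen with earlier results of these data known. The text names all 10 members, up to 4 called genes per list and contrast (largest change first), and the 3 nearest profiles of NFKBIA and TNFAIP3. Other called genes were named after their values were seen. Leaving out libraries with the block and the promoter motif were chosen after seeing the data.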

Additional observations from a re-analysis of the deposited data

How the results depend on the processing

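With 2 libraries a group, the number of members called depended on the replicate block. For bortezomib over the 3 lines, 3 of 10 were called without the block. A common FPKM sum left 1 (TNFAIP3), and leaving out each library gave 1 to 3. Blocked fits were run by suffix, with unnumbered libraries sharing the R1 level, and with voom, and the counts were 7, 7 and 7. Leaving out each library with the block gave 6 to 7. In that order, the counts were 4, 5 and 5 for control, 5, 5 and 7 for KO1, and 5, 5 and 6 for KO2, against 0 without the block. The signalling list had 25, 25 and 26 called genes of 43 against 8, and the target list 15, 15 and 15 of 21 against 9. By suffix these were 58.1% and 71.4%, where 27% of all tested genes were called higher and 27.9% lower. Over the 3 lines the blocked fits called 6690, 6689 and 7078 of 12194 tested genes. In control, KO1 and KO2, the fit on the R1 level called 3968, 3403 and 3291 genes, and voom with the block 4624, 4019 and 3950. Over all tested genes, the replicate block by suffix raised the calls from 1415 to 6690 over the 3 lines, from 57 to 3952 in control, from 29 to 3378 in KO1 and from 39 to 3297 in KO2. Between KO and control lines it raised them from 42 to 754 in vehicle and from 20 to 934 in bortezomib, with 0 members among them in either fit.

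Some small values turned sign. For NFKB1 in KO2 the bortezomib change of -0.01 became 0.015 under a common FPKM sum, 0.0079 under quantile normalization and 0.0046 under voom without the block. Leaving out 1 library without the block moved the bortezomib change of NFKB1 from -0.096 to 0.67 in control, -0.55 to 0.85 in KO1, -0.41 to 0.40 in KO2 and -0.087 to 0.38 over the 3 lines. The same range was -0.21 to 0.076 for NFKBIA in control, -0.31 to 0.55 for NFKBIE in control and -0.42 to 0.85 for NFKBIE in KO2. Between KO and control lines in vehicle it was -0.40 to 0.21 for NFKBIB and -0.019 to 0.55 for NFKBIA. For the difference of the response of NFKBIE it was -0.21 to 0.65. The cause was not tested. Each value of the 10 genes rested on at least 114 reads, the lowest being for NFKBIE.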
